A study of Mus musculus with 4 samples.

Results

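The endocrine cells of the stomach lie scattered among the other cells of the gland and release peptides and amines from dense-core granules. Several kinds share 1 granule machinery but differ in product. Ghrelin comes from X/A-like cells, somatostatin from D cells, and histamine from enterochromaffin-like (ECL) cells, which in the corpus respond to gastrin and stimulate the acid-secreting parietal cells. Granins are acidic proteins packed into such granules in nearly all endocrine cells and are used as their general markers.

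A group of 10 genes of this system was followed here, chosen by name, with earlier results of these data known, out of 19938 genes that could be named from a probe set of exactly 1 gene. They were the granins and granin-like genes Chga, Chgb, Scg2 and Scg5, the hormone genes Ghrl and Sst, the histamine genes Hdc and Slc18a2, the transcription factor gene Neurod1 and the prohormone-trimming enzyme gene Cpe. Each of the 10 had 1 probe set.

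Cells were cut by laser from the adult stomach of mice on a C57BL/6 background, and their RNA was read on Affymetrix Mouse Gene 1.0 ST arrays. The 4 groups, with 1 array each, were zymogenic (chief) cells of MIST1 knockout mice, zymogenic cells of wild-type mice, mucous neck cells of MIST1 knockout mice and mucous neck cells of wild-type mice. The labels name no treatment. MIST1 is a transcription factor of secretory cells, and its loss is called MIST1-null below; the labels give the allele only as a knockout. About 100 ng RNA per array was pooled over several dissections and mice, and the design text gives 5 MIST1-null and 4 wild-type mice with 2 caps each. Zymogenic cells were picked by position, basal to staining with the lectin GS-II, and by lacking the look of parietal cells. No endocrine marker was part of that choice as the design text gives it, and how neck cells were picked is not described there. In such pools, more or fewer endocrine cells and more or less RNA per endocrine cell cannot be told apart.

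Bhlha15, the gene of MIST1, read 22.0 in MIST1-null zymogenic, 149.8 in wild-type zymogenic, 20.2 in MIST1-null neck and 59.7 in wild-type neck cells, the order the labels give. The sources used here do not say whether its probes lie in the deleted stretch. The cell labels also fitted the lists of defining markers, with exceptions. Of 6 zymogenic cell markers measured, 4 were higher in both zymogenic arrays than in both neck arrays. The pepsinogen gene Pga5 went against the label, at 20.4 in MIST1-null and 31.0 in wild-type zymogenic cells and 1884 in MIST1-null and 1350 in wild-type neck cells. Pgc, another pepsinogen gene, differed by only 0.29 in MIST1-null and 0.20 in wild-type mice on the log2 scale (zymogenic minus neck). Of the neck cell markers, 5 of 6 lay 2-fold or more below their neck value in zymogenic cells of both genotypes. All values are array intensities on a linear scale, and an intensity of 43.7, the median of all named probe sets, is used as a detection level. That line was set by size, since no background was measured. Each group being a single array, there is no replicate check, no error and no p-value for any difference. The 4 comparisons share arrays with each other, so they are not independent views, and genes made in the same cells are not independent of each other.

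All 10 genes were higher in both zymogenic arrays than in both neck arrays, an arrangement found in 23.5% of the 12935 genes that reached the detection level in at least 1 array. The MIST1-null neck array was the lowest of the 4 for all 10, against 25.6% of those genes. For 7 of them, Chga, Chgb, Scg2, Ghrl, Sst, Hdc and Slc18a2, the MIST1-null zymogenic array was highest, followed by wild-type zymogenic, wild-type neck and MIST1-null neck cells. That order was found in 5.37% of genes at the level. The same 7 genes were above 0 for MIST1-null minus wild-type in zymogenic cells and below 0 in neck cells, as were 24.5% of genes at the level. Neurod1 was the 1 gene of the 10 that stayed under the detection level in every array.

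**Figure D1:**
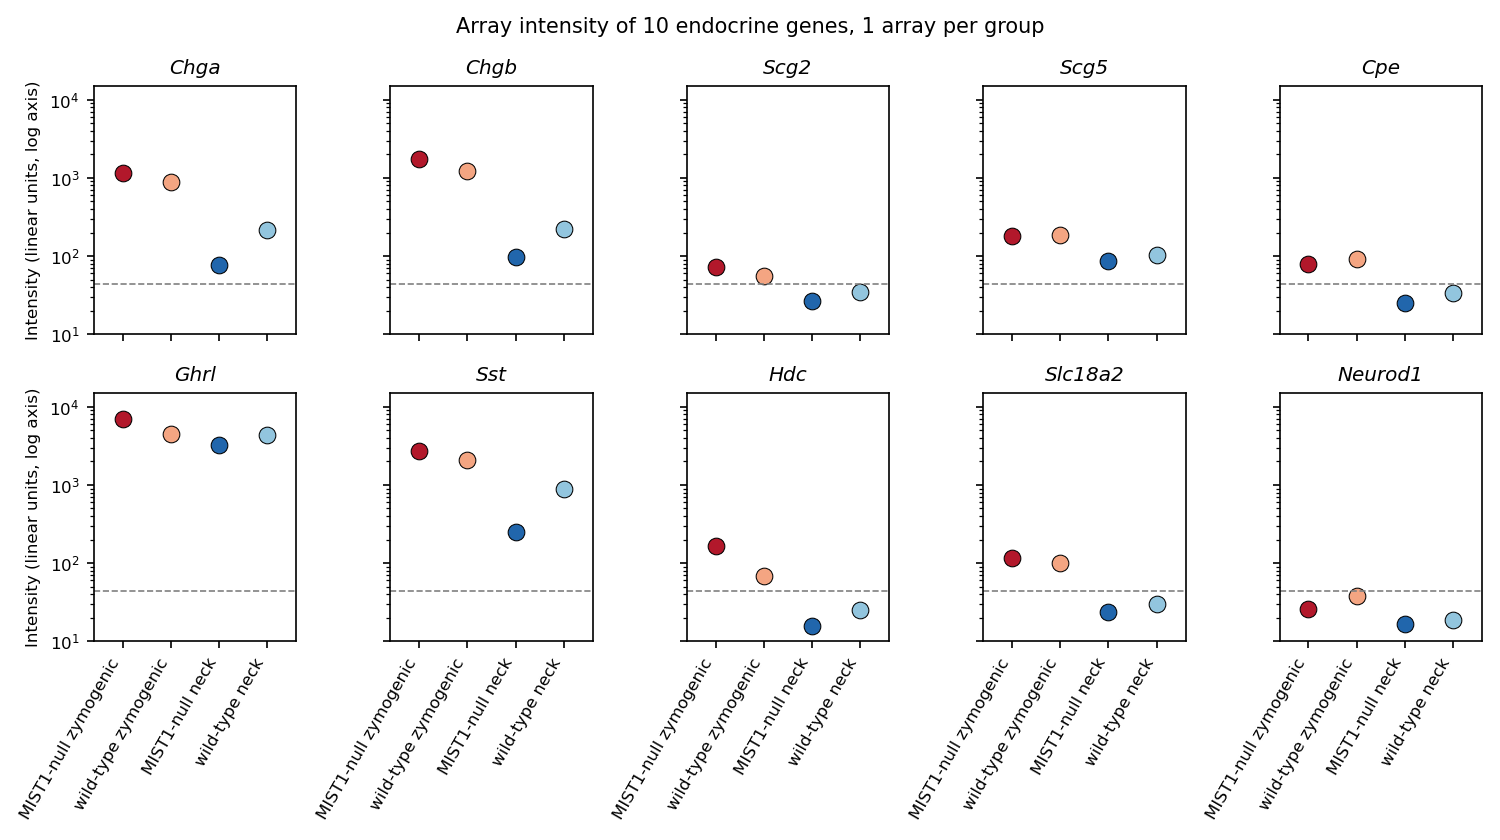
Array intensity (linear units on a log axis) of the 10 endocrine genes, 1 point per array, in MIST1-null zymogenic, wild-type zymogenic, MIST1-null neck and wild-type neck cells. The dashed line is the detection level of 43.7. Both zymogenic points lie above both neck points in every panel, by little for Ghrl and by most for Chga and Chgb.

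Chga and Chgb, chromogranin A and B, are the granins in widest use as endocrine markers. Chga read 1166 in MIST1-null zymogenic, 896 in wild-type zymogenic, 76.4 in MIST1-null neck and 217 in wild-type neck cells. The MIST1-null neck value was 6.55% of the highest value. Chgb read 1757, 1223, 98.0 and 225 in the same order of arrays. Both genes thus separated zymogenic from neck cells. On the log2 scale, though not in intensity units, both separated the genotypes further in neck than in zymogenic cells.

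Between cell types, Chgb was 17.9-fold higher in zymogenic than in neck cells of MIST1-null mice, a log2 difference of 4.16 that ranked number 4 from the top of 11322 genes at the level. Chga ranked number 7 with 3.93. In wild-type mice the log2 differences were 2.44 for Chgb and 2.05 for Chga, at ranks 36 and 78 of 11778. Between genotypes in neck cells, Chga was lower in MIST1-null cells by a log2 difference of -1.51 and Chgb by -1.20. In zymogenic cells they were higher in MIST1-null cells by 0.38 and 0.52, both under 2-fold.

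Scg2, secretogranin II, and Scg5, also known as 7B2, which assists the prohormone convertase PC2, spanned a smaller range. Scg2 read 72.2 in MIST1-null zymogenic, 54.9 in wild-type zymogenic, 26.6 in MIST1-null neck and 34.8 in wild-type neck cells, so that both neck values lay under the detection level. Scg5 read 180, 185, 85.9 and 102 in that order, all above it. The highest array stood 2.71-fold over the lowest for Scg2 and 2.16-fold for Scg5, against 15.3-fold for Chga. Cpe, carboxypeptidase E, which trims basic residues from hormone intermediates, read 78.2, 90.5, 24.9 and 33.5. For Scg5 and Cpe the wild-type zymogenic array was the higher zymogenic one, by log2 differences (MIST1-null minus wild-type) of only -0.04 and -0.21.

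The hormones of different endocrine cells did not differ between arrays by the same amount. Ghrl, which encodes ghrelin, an appetite-stimulating peptide, read 6972 in MIST1-null zymogenic, 4428 in wild-type zymogenic, 3214 in MIST1-null neck and 4371 in wild-type neck cells. The wild-type cell types were nearly level for Ghrl, with a zymogenic minus neck log2 difference of 0.02, which was -0.02 after median centring. Sst, which encodes somatostatin, an inhibitor of acid and hormone release, read 2686, 2079, 251 and 885 in the same order. Sst was therefore 2.35-fold higher in zymogenic than in neck cells of wild-type mice and 10.7-fold higher in those of MIST1-null mice, where Ghrl was 2.17-fold higher.

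The largest gap between these hormones was in the comparison of cell types in MIST1-null mice. There the log2 difference was 3.42 for Sst and 1.12 for Ghrl, so Ghrl minus Sst was -2.30. In neck cells, MIST1-null minus wild-type was -1.82 for Sst, number 38 from the bottom of 10966 genes, and -0.44 for Ghrl. In zymogenic cells the same genotype difference was 0.37 for Sst and 0.65 for Ghrl, and Ghrl minus Sst was 0.29. After quantile normalization the 2 genes were closer there, at 0.30 for Sst and 0.34 for Ghrl. Ghrl lay above the 99th percentile of named probe sets, 1640 to 1846 depending on the array, in all 4 arrays. The highest value of any probe set was 13823 or more in each array. Whether the high level of Ghrl bears on the size of its differences was not tested.

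The histamine genes are used by ECL cells, where the enzyme histidine decarboxylase (Hdc) makes histamine and the vesicular monoamine transporter VMAT2 (Slc18a2) loads it into granules. Hdc read 164 in MIST1-null zymogenic, 68.0 in wild-type zymogenic, 15.6 in MIST1-null neck and 24.8 in wild-type neck cells. Slc18a2 read 116, 99.7, 23.8 and 30.3 in that order. Both genes were over the detection level in the zymogenic arrays and under it in the neck arrays, so their cell type differences rest on neck values under the level. These log2 differences were 3.39 for Hdc and 2.29 for Slc18a2 in MIST1-null mice, and 1.46 for Hdc and 1.72 for Slc18a2 in wild-type mice. With a pseudocount of 32 they were 2.04 for Hdc and 1.41 for Slc18a2 in MIST1-null mice, and 0.82 for Hdc, under 2-fold, and 1.08 for Slc18a2 in wild-type mice.

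Hdc was the 1 gene of the 10 that differed at least 2-fold between genotypes in zymogenic cells, being 2.41-fold higher in MIST1-null cells (log2 difference 1.27), while Slc18a2 was higher by 0.22 and Chga by 0.38. Hdc minus Chga was thus 0.89 in that comparison. With the same pseudocount the Hdc difference was 0.97, just under 2-fold. Histamine is also made and stored by mast cells. Of 11 mast cell markers measured, 6 stayed below the detection level in each of the 4 arrays. Between genotypes in zymogenic cells 3 reached it. Of these, Mcpt1 was 2-fold or more higher in MIST1-null cells (1.25), beside 5.15% of genes at the level, and Mcpt4 lower (-1.44), beside 5.23%. Each had 1 array under the level, Mcpt1 at 26.98 in wild-type and Mcpt4 at 18.65 in MIST1-null zymogenic cells. The granule protease gene Cpa3 and the IgE receptor genes Fcer1a and Ms4a2 were under the level in every array, and no marker was listed at 0. Their summed intensity, made up mostly of values under or near the level, was 341 in MIST1-null zymogenic, 368 in wild-type zymogenic, 343 in MIST1-null neck and 353 in wild-type neck cells, so it says little about mast cells.

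Neurod1, a helix-loop-helix factor of endocrine differentiation, read 25.8 in MIST1-null zymogenic, 38.1 in wild-type zymogenic, 16.7 in MIST1-null neck and 18.9 in wild-type neck cells. No difference of it is counted, since all 4 values were under the detection level.

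Counted over the group, 9 of 10 genes were at least 2-fold higher in zymogenic than in neck cells of MIST1-null mice, where 4.9% of genes at the level were, and none was 2-fold lower, beside 4.8%. The median log2 difference of the 10 was 1.97, beside 0.05 over all genes. In wild-type mice 6 of 10 were at least 2-fold higher, Chga, Chgb, Sst, Hdc, Slc18a2 and Cpe, beside 6.27% of genes at the level, and none was lower, beside 6.78%. The median was 1.33 beside 0.05. The counts of higher genes were 6 in MIST1-null and 4 in wild-type mice with the pseudocount of 32, which shrinks differences of dim genes.

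Between genotypes the counts were small. In neck cells 3 of 10, Sst, Chga and Chgb, were at least 2-fold lower in MIST1-null mice, beside 2.4% of genes at the level, and none was 2-fold higher, beside 1.89%. With the pseudocount of 32 the count was 2, since Chgb came to -0.98. Over all genes 207 were higher and 263 lower in that comparison, a split that became 259 higher and 216 lower after median centring. All 10 differences were below 0, with a median of -0.43 beside -0.03 over all genes. Only 5 of the 10, Chga, Chgb, Scg5, Ghrl and Sst, reached the detection level in a neck array. In zymogenic cells 1 of 10, Hdc, was at least 2-fold higher in MIST1-null mice, beside 5.15% of genes, and none was 2-fold lower, beside 5.23%. There 7 of 10 differences were above 0, with a median of 0.37 beside -0.01.

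**Figure D2:**
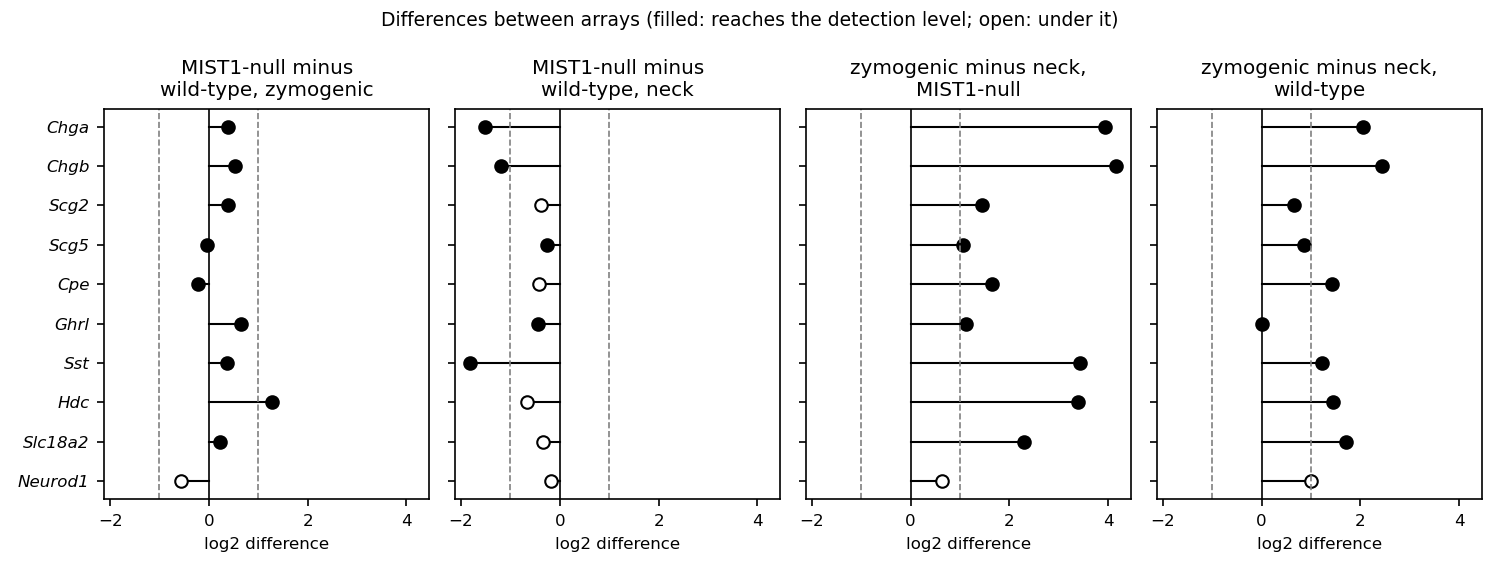
Log2 differences of the 10 genes in the 4 comparisons, MIST1-null minus wild-type in zymogenic and in neck cells and zymogenic minus neck in MIST1-null and in wild-type mice. Dashed lines mark 2-fold, filled points reach the detection level in at least 1 array compared, and open points do not. The cell type differences run from 0.63 to 4.16 in MIST1-null mice and from 0.02 to 2.44 in wild-type mice.

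The genotype difference in zymogenic cells minus that in neck cells was at least 2-fold upward for 5 of 10 genes, beside 8.08% of genes at the level, and downward for none, beside 6.93%. They were Sst at 2.19, Hdc at 1.94, Chga at 1.89, Chgb at 1.72 and Ghrl at 1.10 on the log2 scale, and Ghrl came to 0.89 after quantile normalization and Hdc to 1.22 with the pseudocount of 32. The median of the 10 was 0.94 beside 0.01 over all genes. Neurod1, under the detection level throughout, was the 1 gene below 0, at -0.38. With 1 array per group this difference of differences was not tested.

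**Figure D3:**
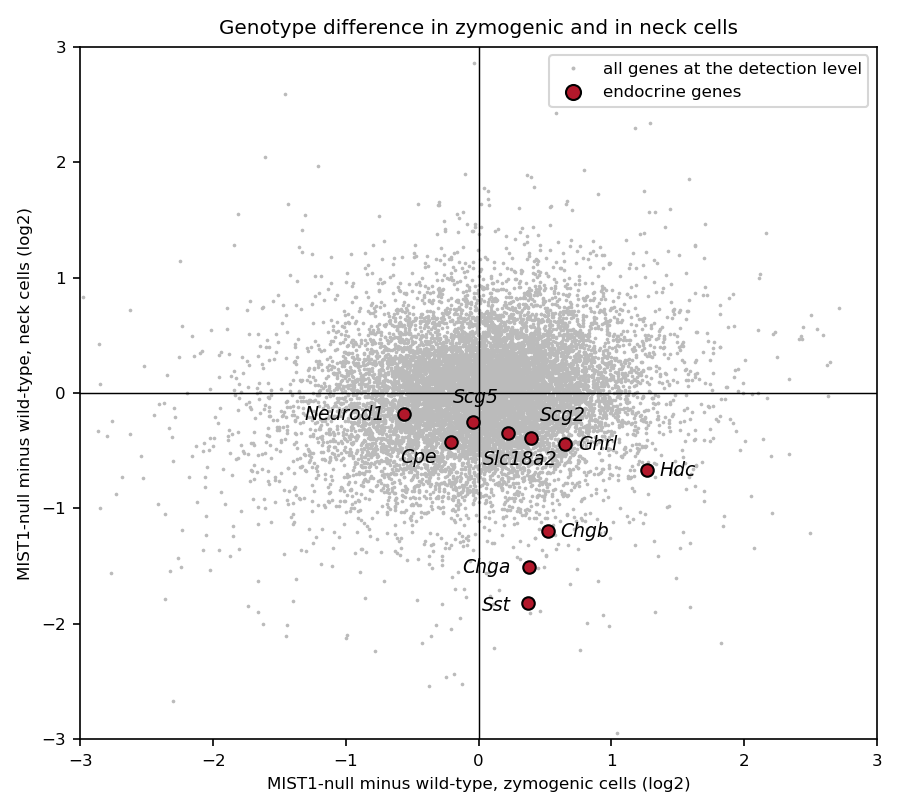
Genotype difference (MIST1-null minus wild-type, log2) in zymogenic cells on the horizontal and in neck cells on the vertical axis, for 12935 genes at the detection level (grey) and the 10 endocrine genes (red). All 10 lie below 0 on the vertical axis and 7 lie to the right of 0. The axes stop at 3 either way, and 19 genes lie outside them.

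Promoters from RefSeq, build GRCm38.p6, were found for 9 of the 10 genes and not for Cpe. The stretches below run from 100 bases before to 15 after the start site, 5′ to 3′ on the strand of the gene. They are shown for the granins with the 3 largest differences between cell types in MIST1-null mice and for the hormone and histamine genes. Capitals mark the core TGACG of the cyclic AMP response element, on either strand, and the TATA box core TATAAA. For Ghrl, with 4 start sites in the table, the one furthest upstream is shown.

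Chga, chr12:102554841-102554955, plus strand: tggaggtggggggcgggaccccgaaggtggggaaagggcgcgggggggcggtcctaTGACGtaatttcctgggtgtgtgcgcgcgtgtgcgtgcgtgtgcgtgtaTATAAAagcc

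Chgb, chr2:132781542-132781656, plus strand: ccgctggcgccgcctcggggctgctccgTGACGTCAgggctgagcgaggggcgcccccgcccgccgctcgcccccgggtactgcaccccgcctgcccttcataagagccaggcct

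Scg2, chr1:79440012-79440126, minus strand: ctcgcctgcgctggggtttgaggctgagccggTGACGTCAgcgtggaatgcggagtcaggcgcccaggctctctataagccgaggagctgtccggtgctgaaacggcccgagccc

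Sst, chr16:23890830-23890944, minus strand: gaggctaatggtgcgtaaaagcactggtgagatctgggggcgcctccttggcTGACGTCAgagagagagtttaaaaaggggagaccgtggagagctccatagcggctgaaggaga

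Ghrl, chr6:113719897-113720011, minus strand: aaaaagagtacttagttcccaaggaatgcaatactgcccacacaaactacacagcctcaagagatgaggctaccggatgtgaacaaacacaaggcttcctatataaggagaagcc

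Hdc, chr2:126618664-126618778, minus strand: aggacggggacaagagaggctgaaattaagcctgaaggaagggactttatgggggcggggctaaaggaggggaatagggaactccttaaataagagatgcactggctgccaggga

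Slc18a2, chr19:59260778-59260892, plus strand: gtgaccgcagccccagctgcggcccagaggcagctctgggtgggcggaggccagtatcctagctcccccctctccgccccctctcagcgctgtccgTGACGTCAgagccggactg

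Searched over the whole window of 250 bases before to 50 after the start site, the core TGACG was present in 6 of the 9 genes, Chga, Chgb, Scg2, Scg5, Sst and Slc18a2. Counted by window, that was 6 of their 12 windows, beside 20.8% of all 32851 promoter windows. In Chgb, Scg2, Sst and Slc18a2 it formed with its reverse complement the whole palindrome TGACGTCA. The palindrome was thus in 4 of the 12 windows, beside 1.79% of all windows. The whole element was counted after the TGACG matches had been seen. The windows of Hdc, Ghrl (all 4) and Neurod1 did not hold these letters. Of the genes with the whole element, Chgb had a cell type difference of 4.16 in MIST1-null mice, Sst 3.42, Slc18a2 2.29 and Scg2 1.44. Of those without it, Chga had 3.93, Hdc 3.39, Ghrl 1.12, Scg5 1.07 and Neurod1, under the detection level, 0.63. The E-box CANNTG, a motif bound by helix-loop-helix factors, was found in all 12 windows of the 9 genes and in 72.3% of all windows. The core TATAAA was found in 1 of the 12, that of Chga, and in 13.6% of all windows. In Chga these letters begin 5 bases after the start site of the table, not before it. These matches are letters in a window and do not show binding.

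Beyond the 10 genes, 104 measured genes of the endocrine system were read in 6 lists, of peptide hormones, granins and convertases, amine and ghrelin-modifying enzymes, fate regulators, granule release genes and receptors. In MIST1-null mice 65 of them reached the detection level in an array compared. Of these, 17 stood 2-fold or more above and 3 as far below their neck level in zymogenic cells, beside 4.9% and 4.8% of all genes at the level, and their median was 0.24 beside 0.05 over all genes. In wild-type mice 11 of 65 were higher and 3 lower, beside 6.27% and 6.78%, with a median of 0.30. Between genotypes 2 of 73 were higher and 4 lower in zymogenic cells, beside 5.15% and 5.23%. In neck cells 1 of 50 was higher and 0 lower, beside 1.89% and 2.4%, so the genotype counts were near the shares over all genes.

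Some other granule proteins were also higher in zymogenic cells. Of 9 further granin and convertase genes, 5 reached the detection level in zymogenic or neck cells of MIST1-null mice. There 3 passed 2-fold upward and 1 downward in zymogenic against neck cells, beside 4.9% and 4.8% of all genes at the level. Scg3, secretogranin III, read 71.0 in MIST1-null zymogenic, 71.8 in wild-type zymogenic, 14.8 in MIST1-null neck and 24.4 in wild-type neck cells, with cell type differences of 2.26 in MIST1-null and 1.56 in wild-type mice. Pcsk1, the prohormone convertase PC1/3, differed by 1.66 in MIST1-null and 0.95 in wild-type mice. Furin, a convertase found in nearly all cells, differed by 2.78 and 1.36, and in zymogenic cells it was higher in MIST1-null mice by 1.27. Cpd, a carboxypeptidase of the same family as Cpe that is not confined to endocrine cells, went the other way, at -1.48 and -1.60.

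Of 31 granule membrane and release genes, 18 reached the detection level in zymogenic or neck cells of MIST1-null mice, where 7 passed 2-fold upward and 1 downward in zymogenic against neck cells, beside the 4.9% and 4.8% of all genes given above. The furthest were Resp18, an endocrine secretory protein, at 2.41, Snap25, a membrane fusion protein, at 1.84, Aplp1 at 1.65, the small GTPase Rab3c at 1.58, Rims2 at 1.53 and synaptophysin, Syp, at 1.15. The lower gene was Rab27a, at -1.34. In wild-type mice 6 of 23 at the level were higher and 1 lower, beside 6.27% and 6.78%, with Resp18 at 1.66, Snap25 at 1.45, the granule priming factor Cadps at 1.34, secretagogin, Scgn, at 1.30, Rab3c at 1.16 and Syt7 at 1.06, and Ptprn2 at -1.12. Among the genes named as higher, Aplp1 and Syp were at the detection level in the neck arrays and the others were under it there. Snap25 is a marker of enteric neurons as well.

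Few other peptide hormone genes passed 2-fold between cell types. Of 15 further peptide genes, 7 reached the detection level in no array. In MIST1-null mice 7 of the others reached it in an array compared. Of these, 2 were at least 2-fold higher in zymogenic than in neck cells, beside 4.9% of genes at the level. They were Gcg, the glucagon precursor gene (log2 difference 1.10), and Nucb2, the precursor gene of nesfatin-1, a satiety peptide (1.77). In wild-type mice 1 of 8 was higher, Nucb2 at 2.19, beside 6.27%. None was 2-fold lower in either genotype, beside 4.8% and 6.78%. Nucb2 read 1050 in MIST1-null zymogenic, 2663 in wild-type zymogenic, 308 in MIST1-null neck and 581.6 in wild-type neck cells. Unlike Ghrl, it was lower in MIST1-null zymogenic cells, by a log2 difference of -1.34, and it was lower by -0.92 in MIST1-null neck cells. Of 7 peptide genes at the level in zymogenic cells, Nucb2 was the 1 that was 2-fold lower, beside 5.23% of genes. Gast, gastrin, a product of the antrum that was singled out after its values were seen, lay between 38.9 and 48.4 in all arrays.

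Among 11 genes of amine handling and ghrelin modification, 7 reached the detection level in zymogenic or neck cells of MIST1-null mice and 6 in those of wild-type mice. In zymogenic against neck cells, 1 passed 2-fold upward in MIST1-null mice, beside 4.9% of genes at the level, and 0 in wild-type mice, beside 6.27%. It was the tyrosine hydroxylase gene Th at 1.00, from 52.6 in zymogenic and 26.3 in neck cells, the latter under the level. Mboat4, the enzyme that acylates ghrelin, was looked up after its values were seen. It read 92.5 in MIST1-null zymogenic, 62.8 in wild-type zymogenic, 53.6 in MIST1-null neck and 45.1 in wild-type neck cells, and so did not follow Ghrl in being lowest in MIST1-null neck cells. Of 22 fate regulators, 16 reached the level in zymogenic or neck cells of MIST1-null mice and 13 in those of wild-type mice. Hhex (1.28) and Etv1 (1.02) passed 2-fold upward in zymogenic cells of MIST1-null mice, beside 4.9% of genes at the level. Prox1 (1.63) did so in those of wild-type mice, beside 6.27%. For each of these genes the neck array compared was under the level. A second probe set of Etv1 differed by 2.97 in MIST1-null mice. Prox1 was also 2-fold higher in MIST1-null than in wild-type neck cells, at 1.18, beside 1.89% of genes at the level. It read 44.2 in MIST1-null neck cells, barely over the level, and 19.5 in wild-type neck cells.

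Receptors for these hormones were read in 16 genes. In MIST1-null mice 12 reached the level, with 2 at least 2-fold higher and 1 lower in zymogenic than in neck cells, beside 4.9% and 4.8% of genes. In wild-type mice 10 did, with 1 higher and 1 lower, beside 6.27% and 6.78%. Cckar, a cholecystokinin receptor of zymogenic cells that also binds gastrin weakly, differed between zymogenic and neck cells by 2.18 in MIST1-null and 1.52 in wild-type mice. Cckbr, the gastrin receptor of parietal and ECL cells, read 63.4 in MIST1-null zymogenic, 28.7 in wild-type zymogenic, 18.1 in MIST1-null neck and 30.1 in wild-type neck cells, and reached the detection level in the first of these alone. Glp1r went the other way, at 21.0, 54.4, 100 and 128 in that order of arrays. The other 13 receptor genes, among them the ghrelin receptor Ghsr, 5 somatostatin receptors and the histamine receptor Hrh2, were within 2-fold in all 4 comparisons. Of these, 4 reached the level in no array and could not have been counted.

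By the rule of closest profile over the 4 arrays, the genes nearest to the mean of the 9 endocrine genes at the level were Calcrl, a receptor subunit for calcitonin gene-related peptide and adrenomedullin, Naip6, the collagen gene Col3a1, Cckar, Dmxl2, the matrix proteoglycan decorin gene Dcn, Ms4a10, Snx32, the chemokine gene Ccl11 and vimentin, Vim. Their Euclidean distances in centred log2 values ran from 0.18 to 0.38, among 6555 candidate genes. The 9 endocrine genes themselves lay 0.34 (Slc18a2) to 1.43 (Chgb) from their mean. A profile of 4 arrays is short, and this likeness is a description.

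Fibroblast and smooth muscle markers summed to the same order of arrays as Chga and Sst. Of 15 such markers, 14 were higher in both zymogenic than in both neck arrays, an arrangement found in 23.5% of genes at the level. Their summed intensity was 2142 in MIST1-null zymogenic, 1810 in wild-type zymogenic, 561 in MIST1-null neck and 808 in wild-type neck cells. None was listed at 0 and 3 were under the detection level throughout. Immune markers summed to 591, 714, 358 and 513, with 6 of 12 higher in both zymogenic arrays, and enteric neuron and glia markers, of cells that also hold granins, to 667, 813, 523 and 588, with 5 of 16. Endothelial markers summed to 531, 577, 436 and 561, with 4 of 10.

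Markers of the glands' own cells took differing orders. Parietal cell markers summed to 8664 in MIST1-null zymogenic, 4758 in wild-type zymogenic, 9109 in MIST1-null neck and 8555 in wild-type neck cells, so that the wild-type zymogenic array was low. Neck cell markers summed to 689, 1839, 11845 and 9616. Zymogenic markers summed to 25134, 23554, 14451 and 14502 and surface mucous markers to 10762, 8977, 6670 and 6761, both in the order of Chga and Sst but with the neck arrays close to each other. The part of these other cells in the endocrine differences was not tested.

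**Figure D4:**
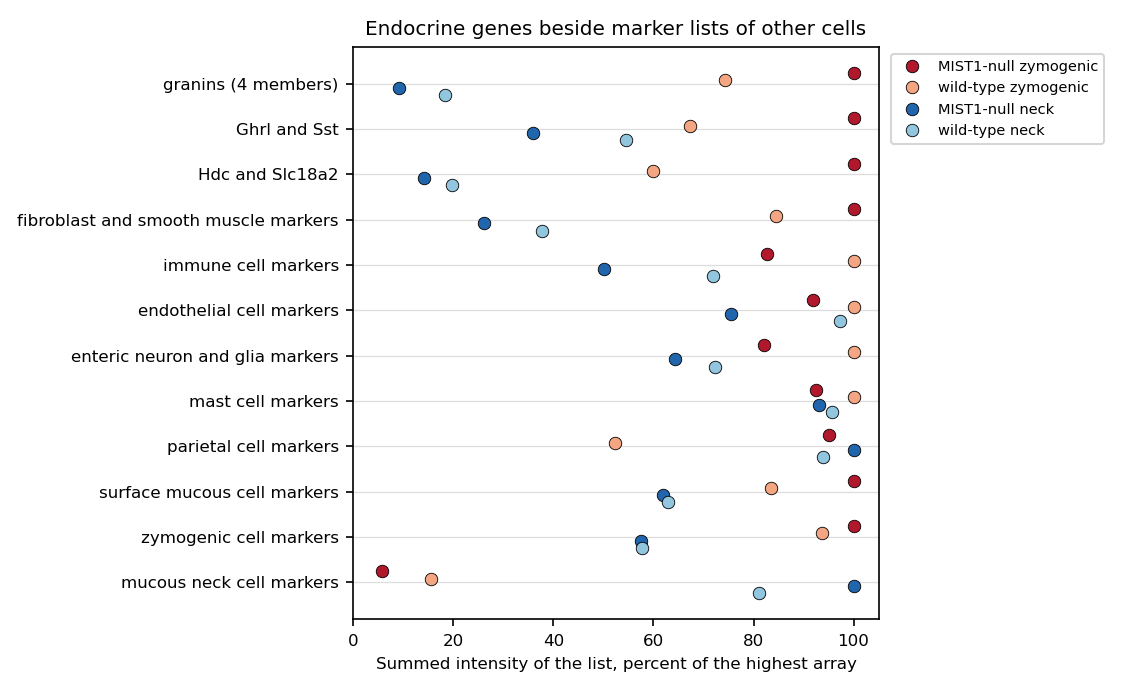
Summed intensity of each list in each array as a percent of that list's highest array, for 3 groups of endocrine genes and 9 marker lists of other cells. Granins reached 9.04% in MIST1-null neck and 18.2% in wild-type neck cells, and fibroblast and smooth muscle markers 26.2% and 37.7%.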

How the data were processed

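RNA from laser-captured cells was pooled over dissections and mice and read on Affymetrix Mouse Gene 1.0 ST arrays, per the labels' protocols. The values deposited by the authors are linear intensity per probe set (0.86 to 14251), which dChip produced according to the design text. The sources used here do not state its normalization or background settings. Precision is limited by the number of arrays.

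The platform annotation gave 1 gene for 21789 of 35512 probe sets, several for 1621 and listed none of the other 12102. The 21789 were used, taking the probe set with the highest mean for the 999 genes with several. The deposited intensity was turned into log2 with a floor at 1. A gene entered a comparison if its highest value reached the median log2 of 5.45, and was counted at a log2 difference of 1 or more. No test was run, since each group is 1 array and no difference has a replicate error. The 10 genes, the lists and the alternatives were chosen with earlier results of these data known. Named list genes were those past 2-fold, up to 6 per list, and the 10 most alike genes came from those above the 75th percentile, 6.34. Alternatives were a pseudocount of 32, quantile normalization, median centring and cyclic loess (limma 3.58.1), other filters, probe set means and a 1.5-fold threshold. Counting was checked on simulated data. Planned protein features were not analysed here. Python 3.11.15 and R 4.3.3 were used.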

Additional observations from a re-analysis of the deposited data

Results flagged for a closer look

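A set of 5 results stood out because the genotype difference pointed one way in zymogenic and the other way in neck cells, and the 2 differed by at least 2-fold. The genotype difference (MIST1-null minus wild-type, log2) in zymogenic cells minus that in neck cells was 2.19 for Sst (0.37 in zymogenic and -1.82 in neck cells), 1.94 for Hdc (1.27 and -0.67), 1.89 for Chga (0.38 and -1.51), 1.72 for Chgb (0.52 and -1.20) and 1.10 for Ghrl (0.65 and -0.44). For Hdc both neck values were under the detection level. Each of these rests on 1 array per group and the difference was not tested. A genotype difference above 0 in zymogenic and below 0 in neck cells was found in 24.5% of the 12935 genes at the level. The genotype differences stood at least 2-fold apart in this direction in 8.08% of those genes. The share of genes that met both conditions was not counted. The genotype differences also stood 2-fold apart in this direction for 5 of 12 fibroblast and smooth muscle markers at the level. They did so for 5 of 10 parietal cell markers, and for neither list in the other direction. Among the endocrine genes 9 reached the level. Of 6 neck cell markers 0 went in this direction and 3 in the other.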

How the results depend on the processing

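Under the 3 rescalings (quantile normalization, median centring and cyclic loess) no single gene's counted difference changed direction. The 1 uncounted value that changed sign was that of Ghrl between wild-type cell types, from -0.02 to 0.13. The filters, the 1.5-fold threshold and, with 1 probe set per gene, the probe set means leave each difference as it is. A pseudocount cannot reverse a difference between cell types or genotypes. These alternatives are therefore no check of direction there. With the pseudocount of 32, no gene was counted as higher in MIST1-null zymogenic cells (0, Hdc being at 0.97), and the median cell type difference in MIST1-null mice was 1.26 in place of 1.97, by construction of the pseudocount. With the 1.5-fold threshold that first count was 2, through Ghrl at 0.65, a value that was 0.34 after quantile normalization. The pseudocount also took Chgb in neck cells to -0.98 and, in the cell type comparisons, Scg2, Scg5, Cpe and Hdc under 2-fold in at least 1 genotype. Median centring took Scg5 in MIST1-null mice to 0.99. The 75th percentile filter left out Scg2 and Cpe in MIST1-null mice and Hdc in wild-type mice, all dim. Cyclic loess changed no count of the 10 genes, and probe set means could not, since each gene had 1 probe set. Over all genes, the counts of higher and lower genes with the pseudocount were 166 and 179 between genotypes in zymogenic cells, 28 and 53 in neck cells, 214 and 222 between cell types in MIST1-null and 262 and 314 in wild-type mice, and 307 and 252 for the difference of genotype differences, in place of 609 and 619, 207 and 263, 555 and 543, 739 and 799, and 1045 and 897. At 1.5-fold they were 1968 and 1801, 960 and 1092, 1663 and 1390, 2050 and 2037, and 2666 and 2206. With the 75th percentile filter they were 369 and 347, 104 and 120, 313 and 348, 398 and 555, and 585 and 454, and with no filter on level 843 and 1167, 333 and 556, 816 and 776, 1166 and 1054, and 1586 and 1576. No paired analysis was possible because each group is 1 array, and for the same reason no array could be left out. Signal over background is unknown, so differences that involve values near or under the detection level have no firm size.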
